A study of Mus musculus with 8 samples.

Results

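Neurotransmitter receptors and ion channels are the membrane proteins that turn light-evoked signals into currents in the retina. The genes described here were taken by the start of their symbol from a table in which the authors compared retinal cells of ABCA1 knockout and control mice. The name pattern covers potassium, calcium, sodium, HCN, TRP, chloride and anoctamin channels, and the receptors for glutamate, GABA, glycine and acetylcholine. It found 39 of the 1802 listed genes, with 11 named as potassium channel genes, 7 calcium, 8 glutamate, 4 GABA, 0 glycine and 9 other. Of the 11, Kcnq1ot1 is a long noncoding RNA and not a channel subunit. Counts cover all 39 genes, and 35 of them are described by name.

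Papain-dissociated retinal cells were captured in droplets, and the 3′ ends of their transcripts were sequenced. The control group, titled WT, holds 3 libraries, and the knockout group, titled KO with the genotype ABCA1KO, holds 5. ABCA1 exports cholesterol and phospholipid from cells, and the series title places the question in astrocytes and optic neuropathy. The sources used here give no strain, no age, no account of the cells in which the gene was deleted and no number of animals per library.

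The authors' deposited table gives 1 comparison over all cells pooled, with no value per library, error, cell number or depth. No difference below could therefore be set against the spread between libraries, and the unit behind the p-values is not stated. A raw p of 0 is listed for 183 of the 1802 genes, smaller than 3 against 5 libraries would be likely to give. The p-values are therefore read here as counting cells as replicates, and a call is no evidence across libraries. Each gene has a log difference (KO minus WT, read as a natural log) and the share of cells of each genotype with a value above 0. Both appear to come from batch-integrated values. Log differences of such values cannot be read as fold changes of expression, nor a value above 0 as a detected transcript. More cells of a type and a higher value per cell cannot be told apart in pooled values. Below, a gene is called at an adjusted p under 0.05, and higher or lower by the sign of its log difference. These labels were given here and not by the authors, also where the authors' deposited table is named beside them as the source of the values. For log differences near 0 the labels do not establish a direction. The targeted gene Abca1 stood at 0.0294 in the authors' deposited table and was called higher in KO (adjusted p = 4.49e-05). It was above 0 in 48.7% of KO and 30.5% of WT cells. That is not the direction of a lost transcript, but 1764 of the 1802 listed genes had a larger share in KO. The gain of Abca1, 18.2 points, lay below the median gain of all listed genes, 20.8 points. Values of this kind, pooled over all cells, can neither bear out nor contradict the genotype labels.

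Photoreceptors release glutamate in darkness through L-type calcium channels at ribbon synapses, and potassium and calcium-activated chloride channels shape their voltage. ON bipolar cells read that glutamate with the metabotropic receptor mGluR6, whose cascade closes the cation channel TRPM1, while OFF bipolar cells use AMPA and kainate receptors. Amacrine and horizontal cells return inhibition, largely through GABA and glycine receptors.

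Promoter sequences are shown for 4 genes: the mGluR6 gene Grm6 and the TRPM1 gene Trpm1, which act in 1 cascade and were both higher in KO, and the photoreceptor genes Cacna1f and Ano2, of which the first was higher and the second lower. Each line gives the 250 bases before a RefSeq gene start (GRCm38.p6, plus strand for all 4), 5′ to 3′. Capitals mark TAATCC or its reverse complement GGATTA, the core bound by the retinal factors CRX and OTX2, and AGGTCA or its reverse complement TGACCT, a short element bound by orphan nuclear receptors.
Grm6, chr11:50850435-50850684: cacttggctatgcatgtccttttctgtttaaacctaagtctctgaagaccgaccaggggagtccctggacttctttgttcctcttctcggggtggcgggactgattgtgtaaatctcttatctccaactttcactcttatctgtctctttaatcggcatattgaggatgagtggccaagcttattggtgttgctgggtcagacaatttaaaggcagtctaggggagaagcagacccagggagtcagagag
Trpm1, chr7:64153585-64153834: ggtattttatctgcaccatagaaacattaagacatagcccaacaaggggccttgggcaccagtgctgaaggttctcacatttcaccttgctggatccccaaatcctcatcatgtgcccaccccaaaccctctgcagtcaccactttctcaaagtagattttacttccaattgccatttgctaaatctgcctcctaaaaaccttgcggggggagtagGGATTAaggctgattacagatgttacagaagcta
Cacna1f, chrX:7606853-7607102: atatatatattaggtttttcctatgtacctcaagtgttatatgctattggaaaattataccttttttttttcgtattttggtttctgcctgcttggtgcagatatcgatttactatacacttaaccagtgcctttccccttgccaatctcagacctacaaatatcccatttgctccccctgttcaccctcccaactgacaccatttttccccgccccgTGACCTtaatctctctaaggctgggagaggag
Ano2, chr6:125690169-125690418: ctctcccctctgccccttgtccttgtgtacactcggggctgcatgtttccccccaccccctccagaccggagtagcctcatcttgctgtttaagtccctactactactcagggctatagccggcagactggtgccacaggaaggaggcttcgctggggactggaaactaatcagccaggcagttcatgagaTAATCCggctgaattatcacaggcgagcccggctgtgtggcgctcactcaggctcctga

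The CRX and OTX2 core starts 34 bases before the first Trpm1 start and 59 bases before the first Ano2 start, and the nuclear receptor element starts 32 bases before the Cacna1f start. At further starts of the same genes, not printed, that element lies 19 bases before the second Trpm1 start and 128 bases before the third Ano2 start. The Grm6 window holds neither motif. Promoter sequences were found for 25 of the 39 genes, with 34 starts. The CRX and OTX2 core was in 5 of these windows (14.7%), those of Ano2, Gabra2, Gabrr2, Scn7a and Trpm1, against 6.25% of 32851 mouse starts. The nuclear receptor element was in 6 of the 34 windows (17.6%), those of Ano2, Cacna1f, Kcnh1, Kcnip4, Trpm1 and Trpm3, against 14.0% of all starts. Of the 5 genes with the CRX and OTX2 core, 3 were called higher and 2 lower, beside 69.1% and 24.1% of all listed genes. So small a count is no result about the motif.

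As a set, the receptor and channel genes were called about as often as the rest of the table. At an adjusted p under 0.05 in the authors' deposited table, 36 of the 39 were called (92.3%), beside 93.2% of all listed genes. Of the 39, 28 were called higher in KO (71.8%, background 69.1%) and 8 lower (20.5%, background 24.1%). These shares lie near the background and are no result about the set. Their median log difference was 0.0216 in the authors' deposited table (quartiles 0.00433 and 0.0436), beside 0.010 for all listed genes. Read against that median of the whole table, 24 of the 36 called genes lay above it (66.7%), beside 49.2% of all called genes. A log difference at least 0.05 away from 0 was listed for 7 of the genes (17.9%, against 13.3% of the table). All 7 were positive, and Gria2, which was not called, is among them. How many of the table's genes that far from 0 were positive was not counted, so their sign is no trait of the set.

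**Figure D1:**
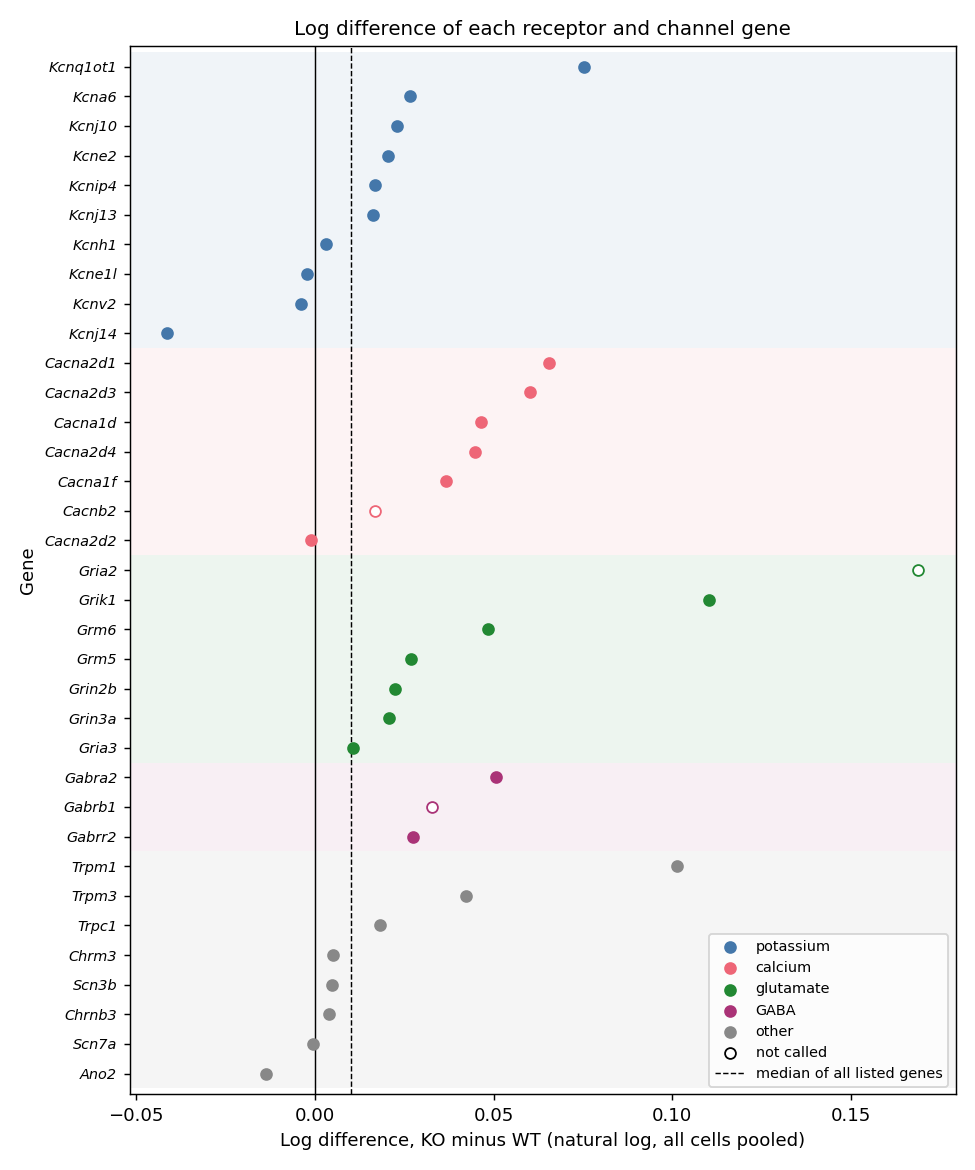
Log difference (natural log, KO minus WT, all cells pooled) of the 35 genes described by name, coloured by subfamily. Filled points were called at an adjusted p under 0.05, open points were not, and the dashed line is the median of all listed genes (0.010). All glutamate and GABA receptor genes plotted lie right of the dashed line, and the points left of 0 are potassium channel genes, other channel genes and Cacna2d2.

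All listed glutamate receptor genes had log differences above 0, with 7 of 8 called higher (87.5%, background 69.1%) and 0 lower by the authors' deposited table. Grik1, the kainate receptor subunit GluK1 known from OFF cone bipolar cells, had the largest called log difference of all 39 genes (0.110), with values above 0 in 78.8% of KO and 48.5% of WT cells by the authors' deposited table. It spans chromosome 16 from 87895900 to 88290265 on the minus strand, and its p was listed as 0. Gria2, the AMPA receptor subunit GluA2 that keeps the receptor nearly impermeable to calcium, had the highest log difference of the set, 0.169 in the authors' deposited table. It was nevertheless not called (adjusted p = 1), with 62.0% of KO and 43.4% of WT cells above 0 in the authors' deposited table. Gria3, another AMPA receptor subunit, was at 0.0106 in the authors' deposited table, close to the median of the whole table.

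Grm6, the ON bipolar cell receptor, was called higher at 0.0484, with 63.0% of KO and 33.9% of WT cells above 0 in the authors' deposited table (adjusted p = 6.22e-162). It spans chromosome 11 from 50850685 to 50866208 on the plus strand. Grm5, a metabotropic receptor coupled to phospholipase C, was at 0.0268 in the authors' deposited table, with 46.5% of KO and 24.0% of WT cells above 0. The NMDA receptor subunit genes Grin2b and Grin3a were both called higher, at 0.0225 and 0.0207 in the authors' deposited table. Grin2b had the lowest WT share of all 39 genes, 21.4%, and a KO share of 46.5% in the authors' deposited table.

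GABA receptor genes were likewise all positive, with 3 of 4 called higher (75%, background 69.1%) by the authors' deposited table. Gabra2, an alpha subunit of the GABA-A receptor, was at 0.0507 in the authors' deposited table and had the largest gain in share of the 39 genes. It was above 0 in 70.0% of KO and 37.8% of WT cells by the authors' deposited table, a gain of 32.2 points that ranks at 32 among all 1802 genes. Gabrr2, a rho subunit of the slow receptors on bipolar cell terminals, was at 0.0274 in the authors' deposited table (64.6% against 38.4%). Gabrb1, a beta subunit, had 0.0327 and was not called (adjusted p = 1), with 47.8% of KO and 31.3% of WT cells above 0 in the authors' deposited table. Gabra2 and Gabrb1 lie 562 kb apart in the receptor gene cluster on chromosome 5, and the exons of Gabrb1 overlap those of Gabra4 on the opposite strand. None of the 5 annotated glycine receptor genes was listed, which does not show that they were unchanged.

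Of the 7 listed genes of voltage-gated calcium channels, 5 were called higher (71.4%, background 69.1%) and 1 lower, and their median was 0.0449 in the authors' deposited table. The exceptions in the authors' deposited table were the auxiliary subunit genes Cacna2d2 (called lower) and Cacnb2 (not called). Both listed pore-forming L-type genes were called higher, Cacna1d (Cav1.3) at 0.0465 and Cacna1f (Cav1.4, the channel of photoreceptor release) at 0.0368 in the authors' deposited table. Cacna1f was above 0 in 66.8% of KO and 43.0% of WT cells, and Cacna1d in 62.7% and 40.6%, in the authors' deposited table. All 4 annotated genes of the alpha2delta subunits, which carry the channels to the membrane and hold them at synapses, were listed. Cacna2d1 (0.0656), Cacna2d3 (0.0601) and Cacna2d4 (0.0449), the partner of Cav1.4 in photoreceptors, were called higher by the authors' deposited table. Cacna2d2, at -0.00117, was called lower by that sign alone. Its share rose from 39.0% of WT to 62.7% of KO cells in the authors' deposited table, so no decrease is established. Cacnb2, the beta subunit of the photoreceptor channel, had 0.0168 and was not called (adjusted p = 1) in the authors' deposited table. Cacna2d3 and Cacna1d are neighbours on chromosome 14, 318 kb apart.

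Potassium channel genes went both ways. Of the 11 named so, 7 were called higher (63.6%, background 69.1%) and 4 lower by the authors' deposited table, and without Kcnq1ot1 the split was 6 and 4. Kcnj14, an inward rectifier, was lowest of those described by name, at -0.0412 in the authors' deposited table (adjusted p = 1.14e-23). Kcnv2, the silent Kv8.2 subunit of photoreceptor potassium channels, was called lower by far less, at -0.00381 (adjusted p = 0.00173) in the authors' deposited table. Kcne1l, a small single-pass subunit, was at -0.00214 in the authors' deposited table. Kcnj14 also had the highest WT share of the genes described by name, 54.8%, with 75.2% of KO cells above 0 in the authors' deposited table. Among all 124 listed genes with a WT share from 50% to under 60%, 82 were called higher and 34 lower by the authors' deposited table.

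The potassium channel genes that were higher were modestly so. Kcna6 (Kv1.6, a delayed rectifier) had 0.0267, and Kcnj10 had 0.0231, in the authors' deposited table. Kcnj10 encodes Kir4.1, through which Müller glia take up and release potassium, and was above 0 in 67.3% of KO and 43.8% of WT cells by the authors' deposited table. Müller glia markers outside the pattern were listed for 5 of 7 genes. By the authors' deposited table, 4 were called higher (80%, background 69.1%) and 1 lower (20%, background 24.1%). So few genes are no result about Müller glia. Log differences of these markers spanned -0.0288 to 0.0801 by the authors' deposited table. The part of these markers in the Kcnj10 value was not tested. Kcne2 (an auxiliary subunit) was at 0.0206, Kcnip4 (a calcium-binding partner of Kv4 channels) at 0.0169 and Kcnj13 (Kir7.1, known from the pigment epithelium) at 0.0163 in the authors' deposited table. Kcnh1, an ether-a-go-go channel, was only just called, at 0.00311 (adjusted p = 0.0333) in the authors' deposited table.

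Kcnq1ot1, the imprinted RNA transcribed antisense to the channel gene Kcnq1, had 0.0753 in the authors' deposited table, above every potassium channel subunit gene of the list. It was above 0 in 67.8% of KO and 41.1% of WT cells by the authors' deposited table. Its exons overlap those of Kcnq1 on the opposite strand. Whether strand was used in counting is not given in the sources used here. Reads of the overlapping genes would be mixed only if it was not. The same condition holds for 14 of the 39 genes, Kcnq1ot1, Grm6 and Trpm1 included, whose exons overlap an annotated exon on the other strand. Exons of Gria2 and Gria3 overlap an annotated exon on the same strand, which counting by strand would not separate.

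The other channels and receptors went both ways, with 6 of 9 called higher (66.7%, background 69.1%) and 3 lower by the authors' deposited table. All 3 listed TRP channel genes were higher: Trpm1 at 0.101, Trpm3 at 0.0422 and Trpc1 at 0.0182 in the authors' deposited table. Trpm1, on chromosome 7 from 64153835 to 64269775 (plus strand), was above 0 in 66.8% of KO and 41.9% of WT cells by the authors' deposited table (adjusted p = 4.93e-123). Trpm3, a heat- and steroid-sensitive channel, had shares of 58.3% and 41.8%, and Trpc1, a cation channel subunit, 70.7% and 46.5%, in the authors' deposited table.

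Ano2, the calcium-activated chloride channel of photoreceptor terminals, was called lower at -0.0136, with 55.3% of KO and 33.1% of WT cells above 0 in the authors' deposited table. The sodium channel beta subunit gene Scn3b had 0.00474 and the sodium-sensing channel gene Scn7a had -0.000554 in the authors' deposited table. The acetylcholine receptor genes Chrm3 (muscarinic) and Chrnb3 (nicotinic) were at 0.00506 and 0.00392 in the authors' deposited table. These 4 values lie within 0.01 of 0, and all 4 fall below the median of the whole table. No chloride channel gene of the Clcn family was listed.

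Channel genes known from photoreceptors went both ways. This group of 5, which is not complete, was put together after its values were seen. Kcnv2 and Ano2 were called lower, Cacna1f and Cacna2d4 were called higher, and Cacnb2 was not called by the authors' deposited table. The counts here and those of the markers below stand beside 69.1% of all listed genes called higher and 24.1% lower. Rod markers outside the pattern were listed for 12 of 13 genes, of which 11 were called lower and 0 higher, from -0.263 to -0.0494 by the authors' deposited table. Cone markers were listed for 8 of 8, all called higher, from 0.0162 to 0.173 by the authors' deposited table. The part of rod and cone markers in the values of the channel genes was not tested.

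Markers of the remaining cell types were fewer in the table. Their counts stand beside 69.1% of all listed genes called higher and 24.1% lower, and are no result about a cell type. Ganglion cell markers were listed for 5 of 9 genes, 3 called higher and 2 lower, and horizontal cell markers for 4 of 5, all 4 higher, by the authors' deposited table. Astrocyte markers were listed for 2 of 5 genes, Gja1 and Gfap, both called higher by the authors' deposited table. Of 5 mural cell markers 3 were listed, 2 higher and 1 lower, and of 4 endothelial markers 3, with 1 call in each direction, by the authors' deposited table. All 6 microglial markers were listed, 4 called higher and 2 lower by the authors' deposited table. Their part in the values of the receptor and channel genes was not tested.

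The partners of Grm6 and Trpm1 in the ON bipolar cascade were higher as well. Of 12 partner genes, 7 were listed and all 7 were called higher (background 69.1%) by the authors' deposited table, with a median of 0.0585. Pcp2 (0.125), a modulator of the G protein, the G protein subunit genes Gnb3 (0.124), Gng13 (0.122) and Gnao1 (0.0585) led the list in the authors' deposited table. Of the 8 listed bipolar markers outside the pattern, 6 were called higher (75%, background 69.1%) and 1 lower (12.5%, background 24.1%). Their log differences ran from -0.0264 to 0.125 in the authors' deposited table. So few genes, with shares near the background, are no result about bipolar cells. That marker list shares Pcp2 and Gng13 with the cascade, Gnb3 is also a cone gene, and the part of bipolar markers in the values of Grm6, Trpm1 and Grik1 was not tested.

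Genes that make, pack and clear the transmitters were counted beside the 69.1% of all listed genes that were called higher. For GABA and glycine, 7 of 10 genes were listed and all 7 called higher by the authors' deposited table. Among them were the GABA-making enzyme Gad1 (0.109), the glycine transporter Slc6a9 (0.0674) and the vesicular transporter Slc32a1 (0.0280) in the authors' deposited table. Amacrine markers, which include these 3 genes, were listed for 5 of 8, all called higher, from 0.00211 to 0.109 by the authors' deposited table, and their part in the GABA receptor values was not tested. For glutamate, 6 of 11 genes were listed, 5 called higher (83.3%) and 1 lower by the authors' deposited table. The transporter Slc1a2 was at 0.0293 and the vesicular transporter Slc17a8 at 0.0187, whereas Slc17a7, the vesicular transporter of photoreceptors and bipolar cells, was at -0.0540 in the authors' deposited table. Of 4 genes of acetylcholine synthesis and packaging only Slc5a7, the choline transporter, was listed, at 0.0118 in the authors' deposited table.

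**Figure D2:**
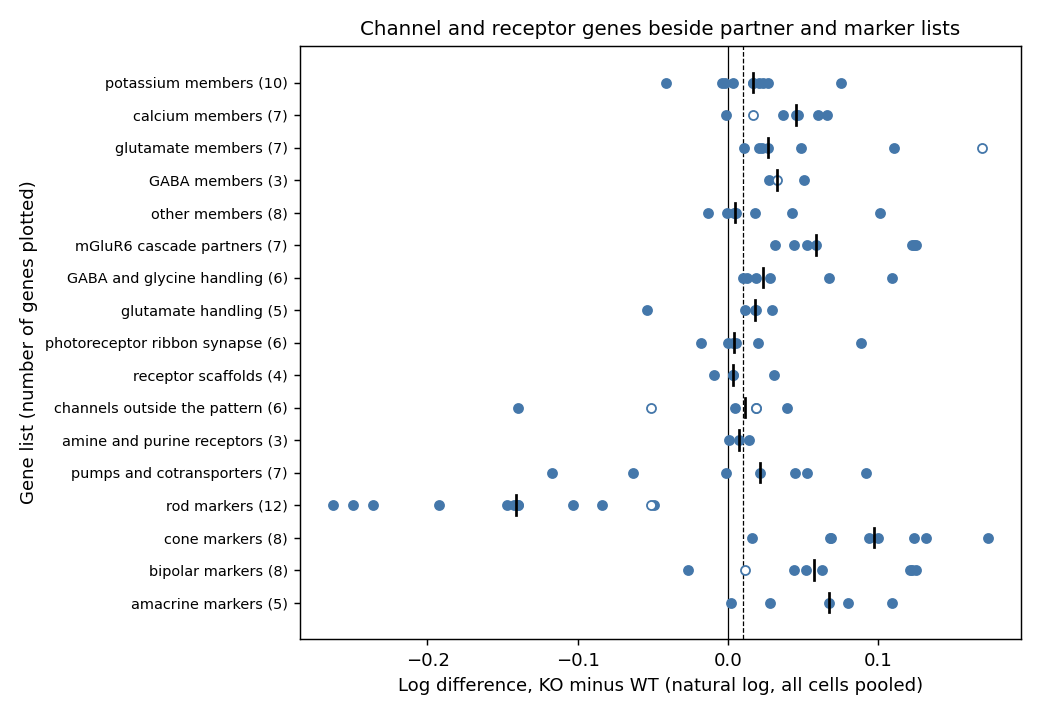
Log difference (natural log, KO minus WT, all cells pooled) of the listed genes in the channel and receptor subfamilies and in partner and marker lists, with the number of genes plotted in brackets; 4 channel and receptor genes and some partner genes are not plotted. Filled points were called, open points were not, short bars are medians of the genes plotted, the solid line is 0 and the dashed line the median of all listed genes. The mGluR6 partners lie wholly right of the dashed line and the rod markers wholly left of 0.

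Synaptic and gradient-setting genes outside the pattern were mixed. Their counts stand beside 69.1% of all listed genes called higher and 24.1% lower. At the photoreceptor ribbon synapse 6 of 19 genes were listed, 4 called higher and 2 lower by the authors' deposited table, from Cplx3 (0.0888), a complexin of ribbon synapses, to the ribbon gene Ctbp2 (-0.0177). Among receptor scaffolds and auxiliary proteins 4 of 30 were listed, 3 called higher and 1 lower by the authors' deposited table, with the scaffold gene Dlg1 at 0.0304 and the AMPA receptor partner Shisa9 at -0.00921. Cnga1, the cyclic nucleotide-gated channel of rods, was called lower at -0.140 in the authors' deposited table, and its partner Cngb1 had -0.0513 and was not called (adjusted p = 0.0881). Both belong to a list of 32 channel genes outside the pattern, of which 6 were listed, 3 called higher and 1 lower by the authors' deposited table. In the same list Pkd2 (polycystin 2) had 0.0393 and was called higher, and the cone gene Cngb3 had 0.0187 and was not called (adjusted p = 1) in the authors' deposited table. Ion pumps and cotransporters were listed for 7 of 19 genes, 4 called higher and 3 lower by the authors' deposited table. They ranged from Slc24a1 (-0.117), the sodium-calcium-potassium exchanger of rods, to the sodium pump subunit Atp1b1 (0.0915) in the authors' deposited table, with the sodium pump subunits Atp1b2 at -0.0635 and Atp1b3 at 0.0523.

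For all 39 receptor and channel genes the share of cells above 0 was larger in KO than in WT, also for the 8 that were called lower by log difference. The 35 genes described by name gained 7.9 to 32.2 percentage points, and the median over all 39 was 22.5, in the authors' deposited table. All listed genes had a median gain of 20.8 points and 1764 of 1802 had a gain above 0, so the direction of the gain is not particular to these genes. The largest gains were those of Gabra2 (32.2), Cacna2d1 (30.6), Scn3b (30.6) and Grik1 (30.3 points), and the smallest among the genes described by name those of Grin3a (7.9) and Kcne1l (8.7 points), in the authors' deposited table.

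**Figure D3:**
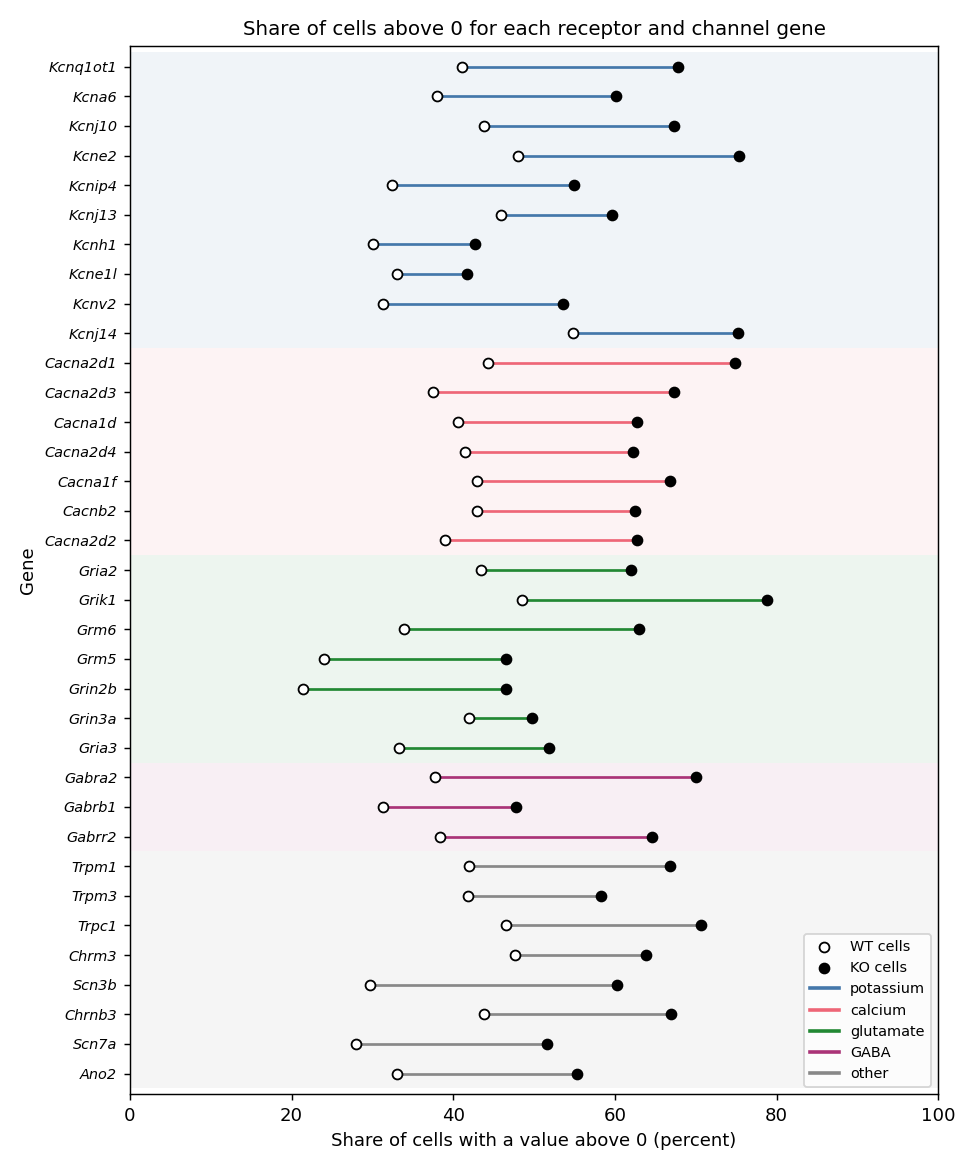
Share of cells with a value above 0 (percent) for the 35 genes described by name, in WT cells (open points) and KO cells (filled points), joined by a line in the colour of the subfamily. Each KO point lies right of its WT point, by 7.9 (Grin3a) to 32.2 points (Gabra2).

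Size of the log difference, gain in share and p-value ordered the genes differently. Scn3b, with a gain of 30.6 points and a p listed as 0, had a log difference of only 0.00474 in the authors' deposited table. Gria2 ranked at 17 of 1802 by log difference and at 1738 by p in the authors' deposited table. Kcnj14 combined a gain of 20.4 points with a negative log difference in the authors' deposited table.

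**Figure D4:**
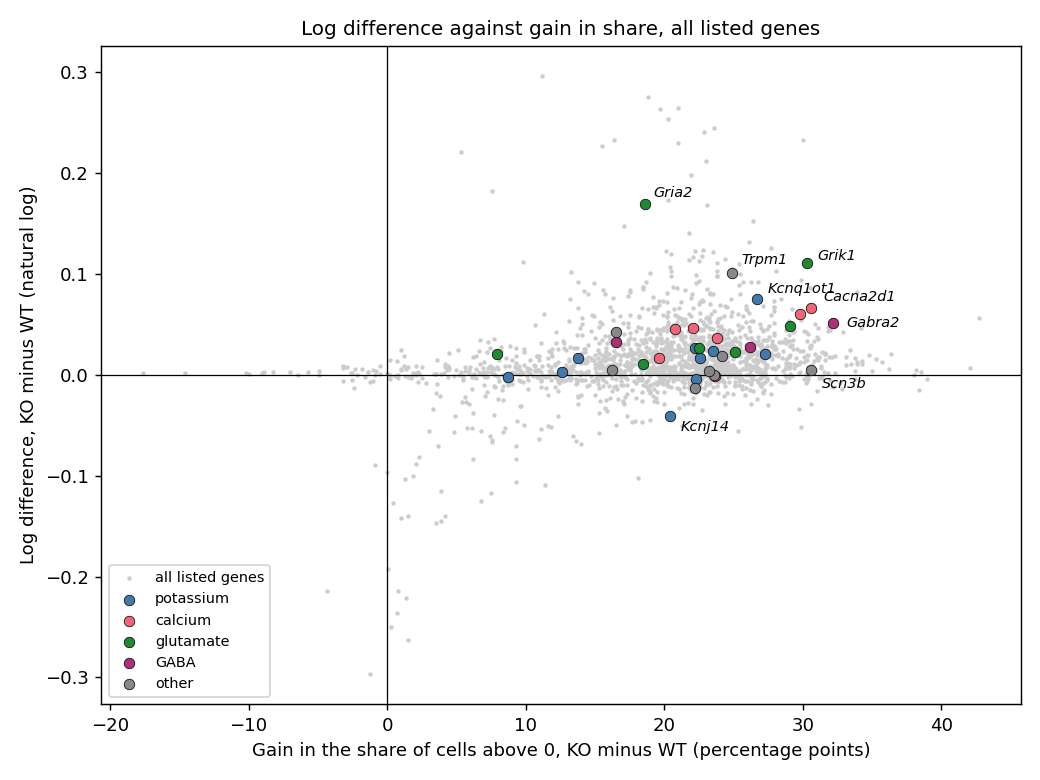
Log difference (natural log, KO minus WT) against the gain in the share of cells above 0 (percentage points, KO minus WT) for all 1802 listed genes (grey) and the 35 receptor and channel genes described by name (coloured by subfamily). The coloured points lie between 7.9 and 32.2 points of gain, and Gria2 (0.169) and Kcnj14 (-0.0412) are the highest and the lowest of them.

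The genes differed widely in their span on the genome. Their median span was 121 kb in the GENCODE annotation of GRCm38, against 32.1 kb for the 1784 listed genes with 1 annotated position. Calcium channel (385 kb) and glutamate receptor genes (336 kb) had the longest medians, whereas the potassium group, at 32.3 kb, was close to the whole table. Kcnip4 spans 1135 kb and Kcne1l 1.54 kb. The 38 coding genes are 15.1% of the 252 protein-coding mouse genes that the name pattern finds in RefSeq. Listed were 10 of 94 potassium, 7 of 26 calcium, 8 of 27 glutamate, 4 of 19 GABA, 0 of 5 glycine and 9 of 81 other genes.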

How the data were processed

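The authors' deposited table was analysed as it stands. Per the submitters' processing notes, Cell Ranger, DESeq2 and Seurat 3.1.4 were used with the build GRCm38; the sources used here do not give the test, the cell filters, the treatment of doublets or the integration method. Per the file headers, the values are a log difference, 2 fractions of cells and raw and adjusted p-values. The deposited log difference was read as a natural log, by the convention of that Seurat version; the header gives no base. Fractions are printed as percent. In the deposited table the adjusted p-value was 2000 times the raw p-value in all 1549 rows where the quotient could be formed (tolerance 1e-06). The largest raw p was 0.00938, and why the other 198 of 2000 features are not listed is not stated, so absence from the table is no sign of stability.

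Genes were matched by symbol pattern and counted as called at an adjusted p under 0.05 (Python 3.11.15, pandas 2.3.3). The direction of a call was taken from the sign of the deposited log difference. No test was run. The counting was checked on made-up data. Depth, replicate spread and intervals are unknown. The members and gene lists were chosen with earlier results of these data known. Values are printed for the members of subfamilies with up to 12 members, and for up to 4 genes of each partner list with the largest absolute log difference, but some genes that this rule selects are not reported here; the marker lists are given by counts and ranges. Positions came from GENCODE M21, in which all 39 genes matched 1 position, and promoters from RefSeq GRCm38.p6.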

Additional observations from a re-analysis of the deposited data

How the results depend on the processing

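No paired analysis was possible because the table holds no value per library, and for the same reason no library could be left out. Requiring a log difference at least 0.02 from 0 left 3 receptor and channel genes called lower in place of 8. By subfamily it left 4 potassium genes higher and 2 lower, 0 calcium genes lower, and 2 other genes higher and 1 lower. Without auxiliary subunits, 5 genes were called lower. Read against the median of all listed genes, the other subfamily had 3 genes higher and 6 lower, and the median of the set was 0.0115. In that reading 4 called genes changed sign by construction: Chrm3 (-0.00498), Chrnb3 (-0.00613), Kcnh1 (-0.00694) and Scn3b (-0.00530). The remaining 47 values of counts and medians stayed within 1.5 times under their alternatives, among them an adjusted p under 0.01, a share of at least 10% in both genotypes, a wider name pattern and the set without Kcnq1ot1, the last chosen after seeing the data.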

Other observations

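Among receptors for amines, peptides and purines, 4 of 31 genes looked for were listed in the authors' deposited table. Of these, 3 were called higher (background 69.1%) and 1 lower (background 24.1%). The beta adrenergic receptor gene Adrb1 had 0.0142 and the alpha receptor gene Adra2a 0.00694, both called higher, in the authors' deposited table. P2ry12, the purine receptor of microglia, had 0.000755 and was called higher by the authors' deposited table. Adrb1 had a p listed as 0 and values above 0 in 66.4% of KO and 35.3% of WT cells by the authors' deposited table, a gain of 31.1 points, so a small log difference stood beside a large gain in share there as it did for Scn3b.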
